A study of Mus musculus with 4 samples.

Results

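Neurotransmitters leave a nerve terminal when a synaptic vesicle fuses with the plasma membrane, and the 9 genes described here encode proteins that carry out or tune that step. They were taken as a named list, 9 of the 35998 gene identifiers in the tables, and read by symbol: the vesicle glycoproteins Sv2a, Sv2b and Sv2c, the calcium sensor Syt1, the vesicle SNARE Vamp2, the plasma membrane SNAREs Snap25 and Stx1a, and the complexins Cplx1 and Cplx2. All 9 passed the filter on low counts in every comparison. The cells came from C57BL/6 mice carrying Lepr-cre and Rosa-LSL-tdTomato, in which Cre made from the leptin receptor locus switches on a red reporter. That reporter marks any cell in which Lepr was active at some time. Reporter cells of the hypothalamus were sorted into 384-well plates and sequenced by CEL-seq2, a method that counts one tag near the 3′ end of each captured transcript. One plate came from mice fasted for 24 h and 3 plates from fed mice, and the cells of all 4 plates carried the same alleles. The sources used here give neither ages nor the number of animals behind a plate, so the p-values cover no more than plate-to-plate spread, which may be technical. Feeding state, plate and sex cannot be told apart: 84.4% of fasted-plate cells were Xist-only (Xist detected, Y-linked transcripts not), against 6.74, 51.6 and 42.0% of cells on fed plates 1, 2 and 3.

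Fusion is driven by a four-stranded bundle in which VAMP2 on the vesicle zips together with SNAP25 and syntaxin-1 on the plasma membrane. Synaptotagmin-1 senses the calcium that enters with an action potential and triggers the last step, and complexins clamp and then assist the bundle. SV2 proteins sit in the vesicle membrane, where they shape calcium-dependent release and help to sort synaptotagmin. The same core machinery drives hormone secretion from endocrine cells such as those of the pars tuberalis, the part of the pituitary that wraps its stalk. AgRP neurons of the arcuate nucleus release the peptides AgRP and NPY together with GABA and drive feeding.

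After quality filtering 1279 of 1536 wells were kept, 270 on the fasted plate and 356, 322 and 331 on the fed plates, with median depths per cell from 7750 to 13507 transcripts. Clusters were named from marker genes that include none of the 9. AgRP-like neurons numbered 23 on the fasted plate and 83, 59 and 29 on fed plates 1, 2 and 3, and their 6 AgRP neuron markers (Agrp, Npy, Acvr1c, Corin, Otp, Gm8773) were all detected on every plate. The other neurons numbered 25 on the fasted plate and 41, 50 and 75 on the fed plates. Pars tuberalis-like cells numbered 20 on the fasted plate and 21, 0 and 1 on the fed plates, and all 7 of their markers, Cga and Tshb among them, were detected on both plates that held 20 or more of them. Counts were summed over the cells of each class on each plate, and a level is given as CPM, the UMIs (counted molecules) of a gene scaled to 1e6 UMIs of nuclear genes in that sum. The sums held from 209915 UMIs, in the pars tuberalis-like sum of fed plate 1, to 2162510, in AgRP-like neurons of the same plate. All 6 AgRP neuron markers were also detected in other neurons of the fasted plate and of fed plates 2 and 3. There they summed to 1334 CPM on the fasted plate and 1013, 909 and 597 CPM on the fed plates. In AgRP-like neurons they summed to 14000 CPM on the fasted plate and 8718, 10490 and 8132 CPM on the fed plates. Since 1 tag is counted per transcript, no scaling by length was applied, and levels of different genes still depend on how well each 3′ end was captured.

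Promoter sequences are shown for the 3 genes on which the results turn most, Sv2c, Cplx2 and Syt1. Each run is the 250 bases before the RefSeq start on GRCm38.p6, on the gene's strand. Capitals mark the GC box, GGGCGG on either strand, a letter pattern found in 32.7% of the 32851 windows of that length. The half-site of the cAMP response element, TGACG on either strand, occurs in 17.8% of the windows and in none of these 3. The motifs were searched as letters only, do not overlap, and say nothing of binding.
Sv2c (chr13:96132578-96132827, minus strand): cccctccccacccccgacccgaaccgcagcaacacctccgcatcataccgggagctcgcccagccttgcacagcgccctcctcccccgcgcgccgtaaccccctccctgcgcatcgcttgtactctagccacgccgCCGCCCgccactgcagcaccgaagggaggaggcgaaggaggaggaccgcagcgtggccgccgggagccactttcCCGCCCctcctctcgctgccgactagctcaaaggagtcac
Cplx2 (chr13:54302306-54302555, plus strand): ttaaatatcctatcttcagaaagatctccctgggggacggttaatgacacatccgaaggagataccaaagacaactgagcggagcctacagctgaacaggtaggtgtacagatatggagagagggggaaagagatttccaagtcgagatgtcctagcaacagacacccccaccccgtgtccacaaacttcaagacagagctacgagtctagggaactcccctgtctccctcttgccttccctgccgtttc
Syt1 (chr10:109010976-109011225, minus strand): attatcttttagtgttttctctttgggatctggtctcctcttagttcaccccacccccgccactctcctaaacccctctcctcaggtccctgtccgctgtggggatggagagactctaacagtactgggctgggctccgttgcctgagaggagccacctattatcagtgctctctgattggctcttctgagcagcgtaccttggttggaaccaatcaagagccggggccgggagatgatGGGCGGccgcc
The Sv2c window holds 2 GC boxes, the Syt1 window 1 and the Cplx2 window none. The RefSeq start of Cplx2 lies before the start of the gene in GENCODE vM21 (13:54371349-54383917), and Syt1 has a second RefSeq start, not shown.

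**Figure D1:**
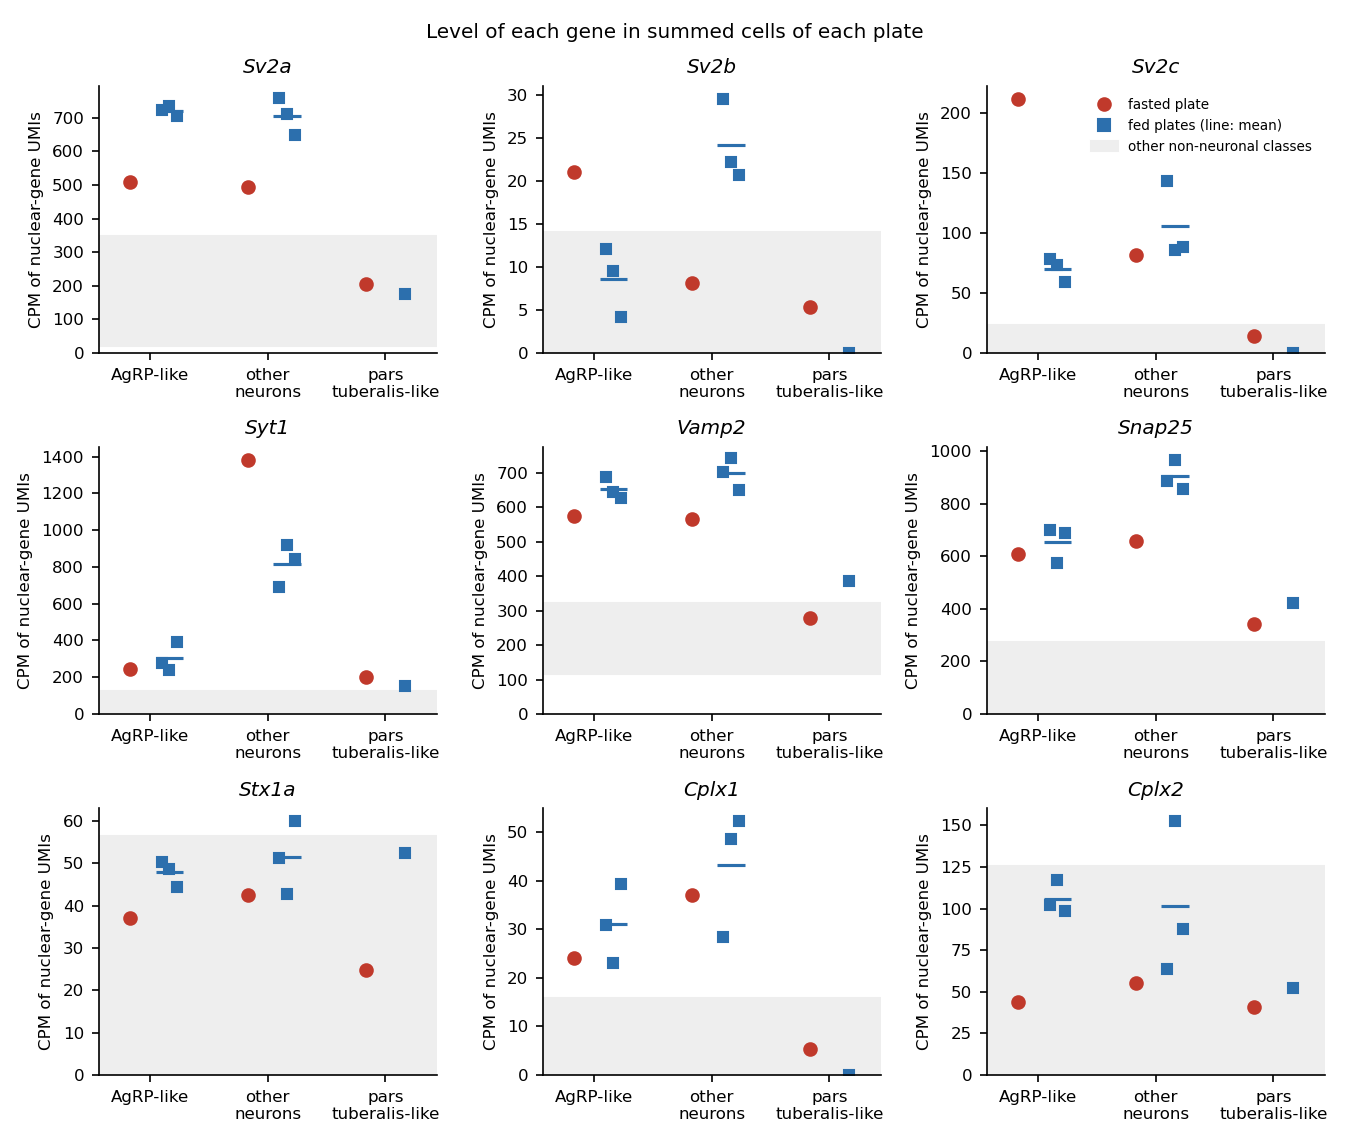
Level of each of the 9 genes (y axis, CPM of nuclear-gene UMIs, starting at 0) in cells summed by class and plate (x axis). Each red point is the fasted plate, each blue square a fed plate and each blue line the mean of the 3 fed plates. The grey band is the range over named non-neuronal classes other than oligodendrocyte-like cells. Sv2c stood at 212 CPM in fasted AgRP-like neurons, above every other sum of Sv2c shown, and Syt1 in other neurons lay above its level in AgRP-like neurons on every plate.

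In AgRP-like neurons, 1 of the 9 genes was higher and 1 was lower on the fasted plate: Sv2c rose about 3-fold on the linear scale and Cplx2 fell to less than 50% of its fed mean. Among all 13101 genes tested, 5.04% were called in this comparison, 3.11% higher and 1.92% lower. The median log2 fold of the 9 genes was -0.28, beside -0.02 over all genes. The remaining 7 genes did not pass the test. The fasted AgRP-like cells formed a cluster nearly of their own: it held all 23 of them and 2 cells of fed plate 3. One cluster held all 83 cells of fed plate 1 and 4 of fed plate 3, and another all 59 of fed plate 2 and 23 of fed plate 3. Clusters of this class and plates can thus hardly be told apart.

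The SV2 family showed the largest difference. Sv2c (13:95954594-96132577), the least widespread of the family in the brain and best known from the basal ganglia, had 212 CPM in fasted AgRP-like neurons, against 78.2, 73.1 and 59.0 CPM on the fed plates. These values come from 343 UMIs on the fasted plate and from 169, 123 and 57 UMIs on the fed plates. The fasted value lay well above all 3 fed values, and the log2 fold was 1.60 (SE 0.21, adjusted p = 2.68e-06). Sv2a (3:96181151-96195521), the broadly expressed family member and the binding site of the drug levetiracetam, had 508 CPM on the fasted plate against 722, 735 and 706.5 CPM on the fed plates. The log2 fold of -0.48 (SE 0.23) did not pass (adjusted p = 0.253). Sv2b (7:75114894-75309262), the third member, had 21.0 CPM against 12.02, 9.51 and 4.14 CPM, from 34, 26, 16 and 4 UMIs in the same order of plates, and its log2 fold of 1.21 (SE 0.47) did not pass either (adjusted p = 0.14).

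Because 1 family member was higher and another had a lower mean, the makeup of SV2 transcripts differed. Sv2c held 28.6% of SV2-family UMIs in fasted AgRP-like neurons (95% Clopper-Pearson interval 26.0 to 31.2, counting error only), against 9.62, 8.95 and 7.66% on fed plates 1, 2 and 3. Sv2a held 68.6% on the fasted plate (65.9 to 71.2) and 88.9, 89.9 and 91.8% on the fed plates. In the other neurons Sv2c held 14.0% on the fasted plate (11.4 to 16.9) and 15.4, 10.5 and 11.7% on the fed plates, so that there the fasted value lay within the fed range.

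The difference in Sv2c was spread over the cells. The median cell of the fasted plate had 200 CPM (quartiles 153 and 296), against medians of 54.6, 55.0 and 28.6 CPM on fed plates 1, 2 and 3. All 23 fasted AgRP-like cells held an Sv2c UMI, as did 62 of 83, 43 of 59 and 18 of 29 fed cells. The cell with the most Sv2c UMIs on the fasted plate gave 14.9% of them. Fasted AgRP-like cells were also deeper, with a median of 65352 transcripts against 25949, 30397 and 33085 on the fed plates. Cells of 10000 or more transcripts were also thinned to 10000, with shallower cells left out, a setting chosen after seeing the data. The log2 fold of Sv2c was then 1.31 (SE 0.32, adjusted p = 0.00607). Thinned to 1000 transcripts, 5 of 23 fasted cells (21.7%, interval 7.46 to 43.7) and 17 of 171 fed cells (9.94%, 5.90 to 15.4) held an Sv2c UMI, a difference that this depth could not show.

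**Figure D2:**
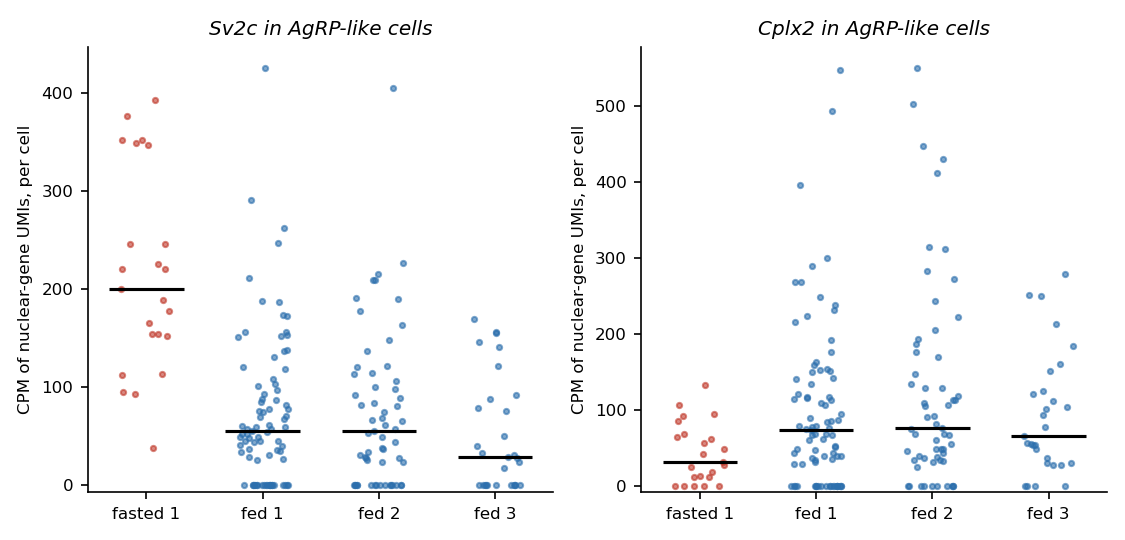
Sv2c and Cplx2 in single AgRP-like neurons (y axis, CPM of nuclear-gene UMIs per cell) on the fasted plate and the 3 fed plates (x axis). Each point is a cell and each black line a median, which for Sv2c is 200 CPM on the fasted plate and 28.6 to 55.0 CPM on the fed plates, and for Cplx2 31.4 CPM on the fasted plate and 65.6 to 76.4 CPM on the fed plates.

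Cplx2, one of the complexins that bind the assembled SNARE bundle, moved the other way. It had 43.8 CPM in fasted AgRP-like neurons, against 102, 117 and 98.3 CPM on the fed plates. The fasted value lay below all 3 fed values, with a log2 fold of -1.25 (SE 0.25, adjusted p = 0.00211). That call did not hold among Xist-only cells (log2 fold -1.49, SE 0.42, adjusted p = 0.103) or after thinning to 10000 transcripts (-1.38, SE 0.44, adjusted p = 0.0754). Cplx1 (5:108518554-108550024), the complexin that dominates at many fast brain synapses, had 24.1 CPM on the fasted plate against 31.0, 23.2 and 39.3 CPM, a range that includes the fasted value (log2 fold -0.31, SE 0.35, adjusted p = 0.697). Cplx2 held 64.5% of the complexin UMIs in fasted AgRP-like neurons (54.9 to 73.4), against 76.7, 83.5 and 71.4% on fed plates 1, 2 and 3, with intervals that overlap between the fasted plate and fed plates 1 and 3.

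The fusion core itself gave small differences in AgRP-like neurons. Vamp2 (11:69088490-69092384) had 575 CPM on the fasted plate and 688, 643 and 627 CPM on the fed plates. Snap25 (2:136713453-136782428) had 608 CPM on the fasted plate, inside the fed values of 700.1, 574 and 688 CPM. Stx1a (5:135023482-135051100), 1 of a pair of neuronal syntaxins, had 37.0 CPM against 50.4, 48.7 and 44.5 CPM. Syt1 (10:108497650-109010982) had 243 CPM against 278, 239 and 394 CPM, so the fasted value again lay among the fed values. Their log2 folds ran from -0.35 to -0.07 with SEs from 0.22 to 0.29, and adjusted p from 0.564 to 0.901.

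Markers of some other cell types were also higher in the fasted AgRP-like sum. The 7 oligodendrocyte markers summed to 401 CPM on the fasted plate against 218, 263 and 184 CPM on fed plates 1, 2 and 3, with none of them at 0 on any plate. The 7 pars tuberalis markers summed to 76.5 CPM on the fasted plate, with none at 0, against 35.1, 2.38 and 6.21 CPM on the fed plates, where Lhx3 and Epcam were among those at 0 on plates 2 and 3. The 7 microglia or macrophage markers summed to 79.6 CPM on the fasted plate, with Tyrobp at 0, against 32.8, 34.5 and 29.0 CPM on the fed plates. Astrocyte markers were close, at 267 CPM on the fasted plate and 245, 256 and 254.5 CPM on the fed plates. Tanycyte markers (78.4 CPM on the fasted plate and 58.7, 64.2 and 113.8 CPM on the fed plates) and endothelial markers (59.9 CPM and 264, 36.9 and 91.0 CPM in the same order) lay within the fed range. In other neurons the oligodendrocyte markers summed to 422 CPM on the fasted plate and 222, 260.5 and 195 CPM on the fed plates. Pars tuberalis markers there summed to 101 CPM against 32.8, 17.7 and 9.135 CPM. Microglia or macrophage markers there summed to 96.9 CPM against 42.6, 40.6 and 40.4 CPM. Astrocyte markers of fasted other neurons lay below all fed values, and their tanycyte and endothelial markers lay within the fed range. Sv2c itself reached at most 23.3 CPM in the named non-neuronal classes, 36.9 CPM in clusters without a name and 14.2 CPM in fasted pars tuberalis-like cells. The part of these other cell types in the differences was not tested. Gm20075, a gene that overlaps Sv2c on the same strand, had 16.7 CPM (27 UMIs) in fasted AgRP-like neurons, against 12.02, 8.92 and 4.14 CPM (26, 15 and 4 UMIs) on the fed plates, and was thus also highest on the fasted plate. Within fed plates 2 and 3, Xist-only over Y-only AgRP-like cells gave a log2 fold of 0.03 (SE 0.35) for Sv2c and of -0.33 (SE 0.26) for Cplx2, and neither passed (adjusted p = 1 and 0.99, edgeR).

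In the other neurons no gene of the 9 was called between the fasted plate and the fed plates, in a comparison where edgeR called 0.143% of 12579 genes (0.111% higher, 0.0318% lower) and 1216 had an unadjusted p under 0.05. DESeq2 also called none of the 9. Sv2c had 81.5 CPM on the fasted plate against 143, 85.6 and 88.5 CPM on the fed plates (log2 fold -0.34, SE 0.33, adjusted p = 0.747). Sv2a was lower than on every fed plate, as in AgRP-like neurons, with 494 CPM against 758, 711 and 648 CPM (-0.50, SE 0.27, adjusted p = 0.573). Cplx2 had 55.2 CPM against 63.4, 153 and 88.0 CPM (-0.87, SE 0.47, adjusted p = 0.595).

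Syt1 was the gene with the highest relative level in fasted other neurons, 1384 CPM against 692, 918 and 846 CPM on the fed plates. The log2 fold of 0.77 (SE 0.27) did not pass (adjusted p = 0.366), and Syt1 passed only without fed plate 1 (0.67, SE 0.15). Syt1 was higher on the fasted plate in both large clusters of these neurons, with 1302 CPM against 750, 719 and 929 CPM in one and 1546 CPM against 1247 and 721 CPM, on fed plates 2 and 3, in the other. The mix of neurons differed as well. The 4 subclusters lowest in Syt1, picked after their values were seen, held 4 of the 25 other neurons on the fasted plate and 13 of 41, 9 of 50 and 24 of 75 on the fed plates, and the part of this mix in the result was not tested.

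**Figure D3:**
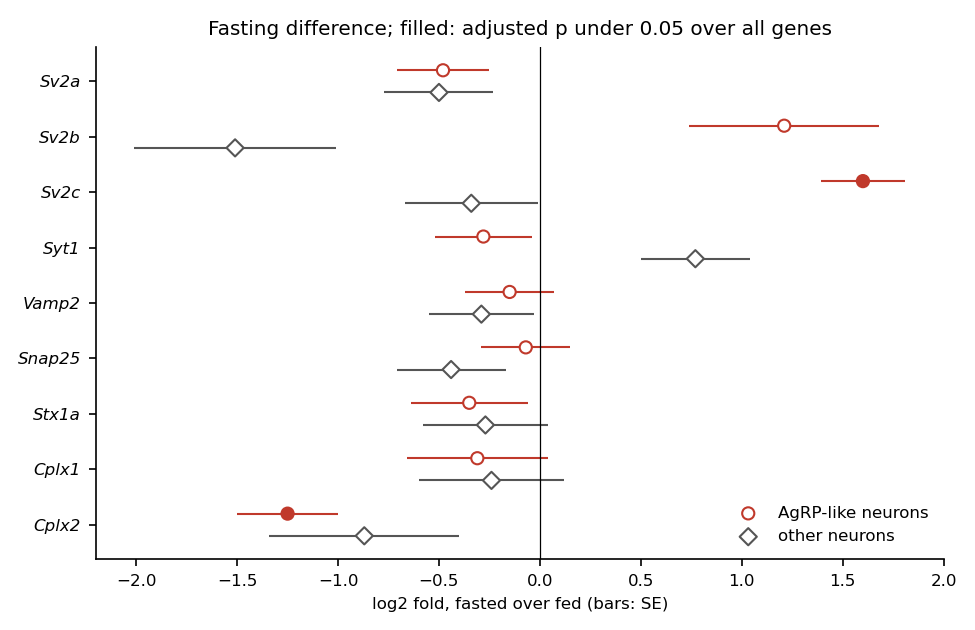
Fasting difference of each gene as log2 fold, fasted over fed (x axis), in AgRP-like neurons (red circles) and other neurons (grey diamonds), with bars for the SE. Filled symbols have an adjusted p under 0.05 over all genes tested: Sv2c at 1.60 and Cplx2 at -1.25 in AgRP-like neurons, and none in other neurons.

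The fasting difference was itself compared between the classes, with plate as a block. In this comparison 1.06% of 13709 genes were called, 0.649% higher and 0.408% lower in AgRP-like neurons, and 2 of the 9 genes were, both toward AgRP-like neurons. The log2 fold of Sv2c was larger in AgRP-like than in other neurons by 1.98 (SE 0.27, adjusted p = 0.000293). For Sv2b the difference was 2.84 (SE 0.63, adjusted p = 0.025). Sv2b had 8.15 CPM in other neurons of the fasted plate, from 9 UMIs, against 29.5, 22.1 and 20.7 CPM on the fed plates. The sums of the 2 classes thus moved in opposite directions, without either passing alone. Within the larger cluster of other neurons Sv2b had 12.25 CPM on the fasted plate, inside the fed values of 24.16, 8.293 and 16.03 CPM. Within the smaller it had 0 UMIs in 7 fasted cells, against 45.01 and 27.62 CPM on fed plates 2 and 3. The subcluster richest in Sv2b, led by Tac1 (64.67 CPM), held no fasted cells. The part of this mix in the Sv2b difference was not tested. The Sv2b call was lost among Xist-only cells (3.31, SE 0.90, adjusted p = 0.0546). Cplx2 did not differ detectably between the classes (-0.39, SE 0.39, adjusted p = 0.77), although it passed in AgRP-like neurons alone. This does not show a shared decrease. In the larger cluster of other neurons Cplx2 had 63.95 CPM on the fasted plate, within the fed values of 60.4, 72.3 and 80.2 CPM. In the smaller it had 37.9 CPM, against 286 and 99.7 CPM on fed plates 2 and 3. Syt1 differed by -1.02 (SE 0.27, adjusted p = 0.135), and passed without any 1 of the fed plates, at -0.95, -1.28 and -0.86 without plates 1, 2 and 3.

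Of the 48 further genes of vesicle release on the list, 47 were tested in AgRP-like neurons, where 2 were higher and 3 were lower on the fasted plate. Over all genes 3.11% were higher and 1.92% lower in this comparison. Rab3b, a small GTPase of secretory vesicles, had 320 CPM on the fasted plate against 155, 133 and 130 CPM on the fed plates (log2 fold 1.22, SE 0.20, adjusted p = 0.000128). Rph3a, rabphilin, which binds RAB3 on the vesicle, had 38.3 CPM against 152, 140.3 and 147 CPM (-1.90, SE 0.26, adjusted p = 5.94e-06). Both differed in their fasting difference from the other neurons, by 1.00 for Rab3b and by -1.27 for Rph3a (adjusted p = 0.0175 each). The dynamins, which pinch off recycled vesicles, split: Dnm3 was higher, with 1097 CPM on the fasted plate and 640 ± 97.9 CPM on the fed plates (SD, n = 3 plates), and Dnm1 was lower, with 284.5 CPM on the fasted plate and 498 ± 25.7 CPM on the fed plates. Syngr3, a vesicle membrane protein, was lower with a log2 fold of -0.84 (adjusted p = 0.0222). By group, SNARE proteins and their regulators had 0 of 8 tested genes called, active zone and priming genes 2 of 17, vesicle membrane proteins 1 of 16 and recycling genes 2 of 6. In the other neurons 0 of 47 list genes were called by edgeR.

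Between the neuron classes, AgRP-like neurons had less Syt1 and slightly less Snap25 than the other neurons of the same plates. In this comparison 15.0% of 11733 genes were called, 6.78% higher and 8.24% lower, and 2 of the 9 genes were lower. Syt1 had 243 CPM in the AgRP-like class and 1384 CPM in other neurons on the fasted plate, 278 and 692 CPM on fed plate 1, 239 and 918 CPM on fed plate 2, and 394 and 846 CPM on fed plate 3. AgRP-like neurons were lower on all 4 plates, and the log2 fold was -1.68 (SE 0.24, adjusted p = 0.00728). Snap25 was lower on all 4 plates by a log2 fold of -0.35 (SE 0.10, adjusted p = 0.0278), and without fed plate 1, 2 or 3 its adjusted p was 0.0833, 0.256 or 0.0868. Sv2a and Vamp2 had log2 folds of 0.07 (SE 0.08) and -0.03 (SE 0.09), the narrowest of the comparison, and did not pass.

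Without the fasted plate 2 more genes were lower in AgRP-like than in other neurons, Sv2b (-1.42, SE 0.30, adjusted p = 0.00118) and Sv2c (-0.53, SE 0.15, adjusted p = 0.0107). Over all genes 16.8% of 11840 were called without that plate, 1989 genes of which 910 were higher. On the fed plates Sv2c averaged 70.1 ± 9.95 CPM in AgRP-like neurons and 106 ± 32.5 CPM in other neurons (SD, n = 3 plates), whereas on the fasted plate the order was turned round, 212 and 81.5 CPM. Of 46 list genes tested on all 4 plates, 1 was higher in AgRP-like neurons, Dnm3 (1.07, SE 0.09), and 9 were lower, beside 6.78% higher and 8.24% lower over all genes. The lower ones with the largest folds were Syt9, another calcium sensor (-1.60, SE 0.19), Sh3gl2, endophilin A1 of vesicle recycling (-1.58, SE 0.11), and the active zone scaffold Rims1 (-1.06, SE 0.12). Vamp1, Amph, Doc2b, Ppfia2, Erc1 and Syn2 were lower by log2 folds from -0.89 to -0.31.

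On the fed plates the order of levels differed between the neuron classes. Stx1a, Cplx1 and Sv2b came last in both, and Syt1 ranked higher in other neurons. In AgRP-like neurons Sv2a (721 ± 14.1 CPM), Snap25 (654 ± 69.8 CPM) and Vamp2 (652 ± 31.5 CPM) led, and Snap25 and Vamp2 differed by less than their spread. Syt1 (304 ± 80.7 CPM) came next, followed by Cplx2 (106 ± 9.93 CPM), Sv2c, Stx1a (47.9 ± 3.05 CPM), Cplx1 (31.2 ± 8.07 CPM) and Sv2b (8.56 ± 4.03 CPM). In other neurons Snap25 (905 ± 57.2 CPM) and Syt1 (819 ± 115 CPM) led and differed by less than the SD of Syt1, and Sv2a (705.5 ± 55.3 CPM) and Vamp2 (698 ± 46.9 CPM) followed at levels that could not be told apart. Values are means ± SD over 3 fed plates.

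Syt1 varied widely among the subclusters of other neurons. Across 14 subclusters, each summed over the 4 plates, Syt1 ran from 86.2 to 1512 CPM, a ratio of 17.5, whereas Vamp2 ran from 561 to 899 CPM, a ratio of 1.60, and Sv2a from 394 to 854 CPM. The lowest Syt1 stood in the subcluster led by Nxph4 and Sim1 (7 cells, all from fed plate 3), and in those led by Crabp1 (133 CPM, 14 cells) and by Aldoc, Gm20754 and Tbx19 (171 CPM, 20 cells). The subcluster led by Pomc had 317 CPM (9 cells). The next, led by Gng8 and Opn5, had 552 CPM, and the 9 above it had from 754 to 1512 CPM. All 4 low subclusters still had from 633 to 1268 CPM of Snap25. Named non-neuronal classes other than oligodendrocyte-like cells had 10.03 to 126 CPM of Syt1, so the lowest subcluster did not stand above them. Clusters without a name had from 64.0 to 387 CPM of Syt1. These are single sums without a test.

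Sv2c was uneven in another way, from 0 UMIs in the subclusters led by Ebf1 and by Nxph4 to 336 CPM in the one led by Tac2 and Kiss1 (7 cells), 268 CPM in the one led by Ghrh and Gal (11 cells) and 240 CPM in the one led by Glipr1 (20 cells). Cplx2 stood at 1162 CPM in a subcluster of 4 cells, all from fed plate 2 and led by Crym, Nrgn and Slc17a7, and between 28.1 and 197 CPM in the other 13. Glutamatergic-like and GABAergic-like neurons were not tested against each other, since 2 plates held 5 or more cells of both and the design asked for at least 3 such plates.

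**Figure D4:**
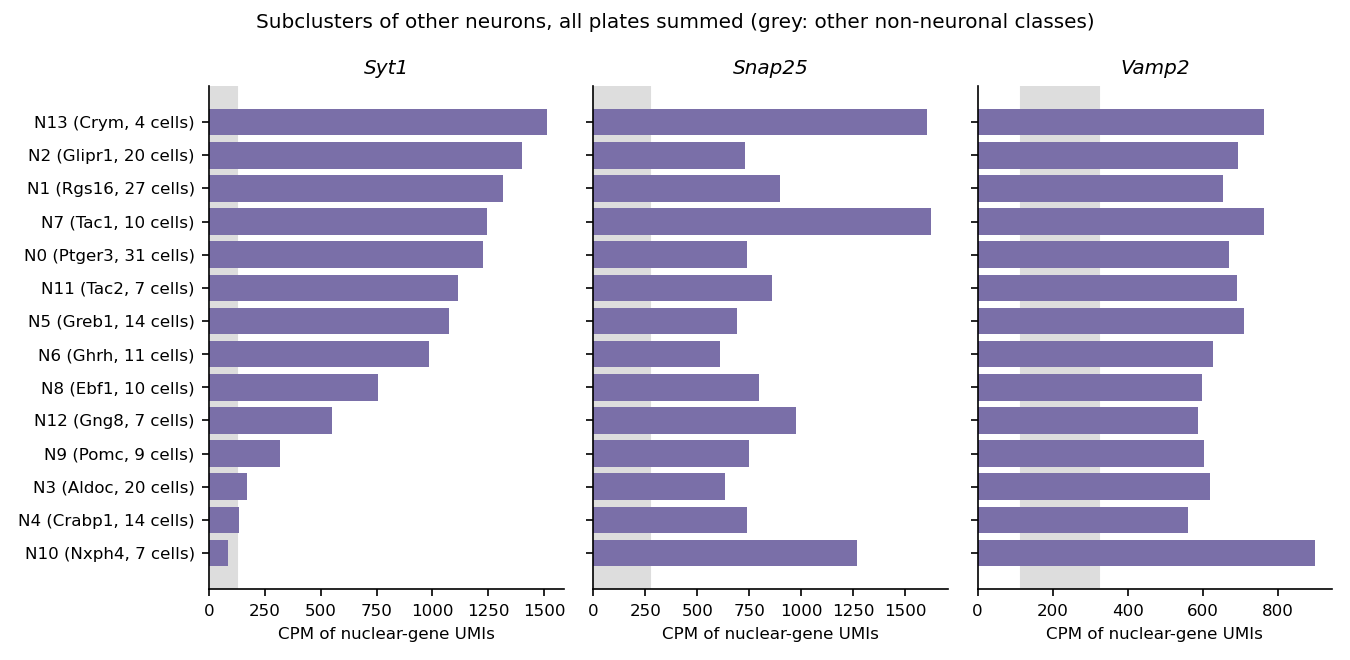
Syt1, Snap25 and Vamp2 (x axes, CPM of nuclear-gene UMIs, starting at 0) in the 14 subclusters of other neurons (rows, ordered by Syt1 and named by leading gene and number of cells), all plates summed. The grey band is the range over named non-neuronal classes other than oligodendrocyte-like cells. Syt1 bars run from 86.2 to 1512 CPM while Vamp2 bars run from 561 to 899 CPM.

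In pars tuberalis-like cells Snap25 and Vamp2 of the fusion core were lower than in neurons, as were Syt1, Cplx1 and all 3 SV2 genes, while Stx1a and Cplx2 did not pass. Of the 9 genes 7 were thus lower than in the neurons of the same plates, in a comparison where 35.0% of 12720 genes were called, 15.9% higher and 19.1% lower. The median log2 fold of the 9 was -1.68, beside -0.05 over all genes. The fit rests on the fasted plate and fed plate 1, with 1 residual degree of freedom among the sums. Its p-values therefore lean on the spread shared over all genes. Pars tuberalis-like cells were shallower than neurons, with medians of 23446.5 transcripts on the fasted plate and 8435 on fed plate 1. Their 13 neuron markers summed to 1956 CPM on the fasted plate, with none at 0, and to 1972 CPM on fed plate 1, where Rbfox3 was at 0; the part of neuronal RNA in these levels was not tested.

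Snap25 and Vamp2 had the highest levels of the 9 in pars tuberalis-like cells, and Stx1a, the third SNARE, was low. Snap25 had 341 CPM in the pars tuberalis-like class and 629 CPM in neurons on the fasted plate, and 424 and 756 CPM on fed plate 1 (log2 fold -0.92, SE 0.24, adjusted p = 0.000841). Both pars tuberalis values lay above those of all other named non-neuronal classes, of which the highest was 274 CPM. Clusters that stayed without a name, left out of all such ranges, reached 584 CPM of Snap25 on fed plate 2. Vamp2 had 278 and 571 CPM on the fasted plate, and 386 and 691.5 CPM on fed plate 1 (-1.0, SE 0.24, adjusted p = 0.000243), and both pars tuberalis values lay within the range of the other non-neuronal classes, 117 to 402 CPM with oligodendrocyte-like cells included. Without those cells that range ended at 323 CPM, below the value of fed plate 1. Stx1a had 24.8 and 39.3 CPM on the fasted plate and 52.4 and 50.7 CPM on fed plate 1, and did not pass (-0.40, SE 0.39, adjusted p = 0.468). Cplx2 had 40.7 and 48.5 CPM on the fasted plate and 52.4 and 90.7 CPM on fed plate 1, and did not pass either (-0.54, SE 0.34, adjusted p = 0.225). For these 2 genes, pars tuberalis-like levels lay inside the range of other non-neuronal classes.

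Transcripts of the calcium sensor gene Syt1 and of the SV2 genes were lower still. Syt1 had 200 CPM in the pars tuberalis-like class and 705 CPM in neurons on the fasted plate, and 152 and 401 CPM on fed plate 1 (-1.70, SE 0.26, adjusted p = 9.82e-10). Sv2a had 205 and 502 CPM on the fasted plate, and 176 and 733 CPM on fed plate 1 (-1.68, SE 0.26, adjusted p = 7.19e-10). Sv2c had 14.2 and 159 CPM on the fasted plate, a ratio of 0.089 (counting interval 0.0382 to 0.177), and on fed plate 1 it had 0 UMIs in pars tuberalis-like cells, which against the limit of 3 counts in that sum is at least 6.82-fold lower than the 97.5 CPM of neurons. Cplx1 had 3 UMIs in fasted pars tuberalis-like cells, a ratio to neurons of 0.181 (0.0365 to 0.547), and 0 UMIs on fed plate 1, at least 2.11-fold lower than in neurons. Sv2b was at 3 and 0 UMIs, with a ratio of 0.336 (0.0667 to 1.05) on the fasted plate. It passed in edgeR (adjusted p = 0.0341) but not without the filter on low counts (0.0503) or in DESeq2 (0.353), and Cplx1 passed in edgeR (0.000297) but not in DESeq2 (0.0873).

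Within the SV2 family, Sv2a held a larger share than in neurons and Sv2b a similar one. Sv2a gave 116 of 127 SV2-family UMIs in fasted pars tuberalis-like cells (91.3%, interval 85.0 to 95.6), against 74.2% in neurons of that plate (72.1 to 76.2). On fed plate 1 it gave all 37 in pars tuberalis-like cells (90.5 to 100), against 86.5% in neurons (85.1 to 87.8). The share of Sv2b on the fasted plate was 2.36% in pars tuberalis-like cells (0.490 to 6.75) and 2.33% in neurons (1.69 to 3.13). Cplx2 gave 23 of 26 complexin UMIs in pars tuberalis-like cells of the fasted plate (88.5%, 69.8 to 97.6), against 62.3% in neurons (55.4 to 68.8). On fed plate 1 it gave all 11 in pars tuberalis-like cells (71.5 to 100%) and 279 of 372 in neurons (70.3 to 79.3%), intervals that overlap. The intervals cover counting error only.

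Of the 46 list genes tested in this comparison, 6 were higher than in neurons and 29 were lower, beside 15.9% higher and 19.1% lower over all genes. Rab3b had 1047 CPM in fasted pars tuberalis-like cells and 1396 CPM in those of fed plate 1 (log2 fold over neurons 2.29, SE 0.25), while Rab3a, the main RAB3 of neurons, and Rab3c were lower (-2.32, SE 0.27, and -2.42, SE 0.28). Cadps2, a priming factor of dense-core vesicles, was higher (1.63, SE 0.24) and its paralog Cadps lower (-2.54, SE 0.28). Unc13b, which encodes the priming protein Munc13-2, was higher (1.87, SE 0.30) and Unc13a lower (-1.52, SE 0.43). Other related genes did not part in this way: Dnm1 (-2.38) and Dnm3 (-1.14) were both lower, and beside the lower Rims1 and Napb (-1.92), Rims2 (-0.40) and Napa (-0.13) did not pass. Syt9, Rph3a and Sypl were higher by 1.40, 0.78 and 0.78. Rims1 (-4.64, SE 0.38), Syn2 (-3.92, SE 0.35), Syngr3 (-3.62, SE 0.36) and Synpr (-3.60, SE 0.44) were lowest among the genes with UMIs on both plates. By group, 5 of 8 SNARE genes were lower, active zone genes were 4 higher and 9 lower of 17, vesicle membrane genes 2 higher and 9 lower of 15, and all 6 recycling genes were lower.

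**Figure D5:**
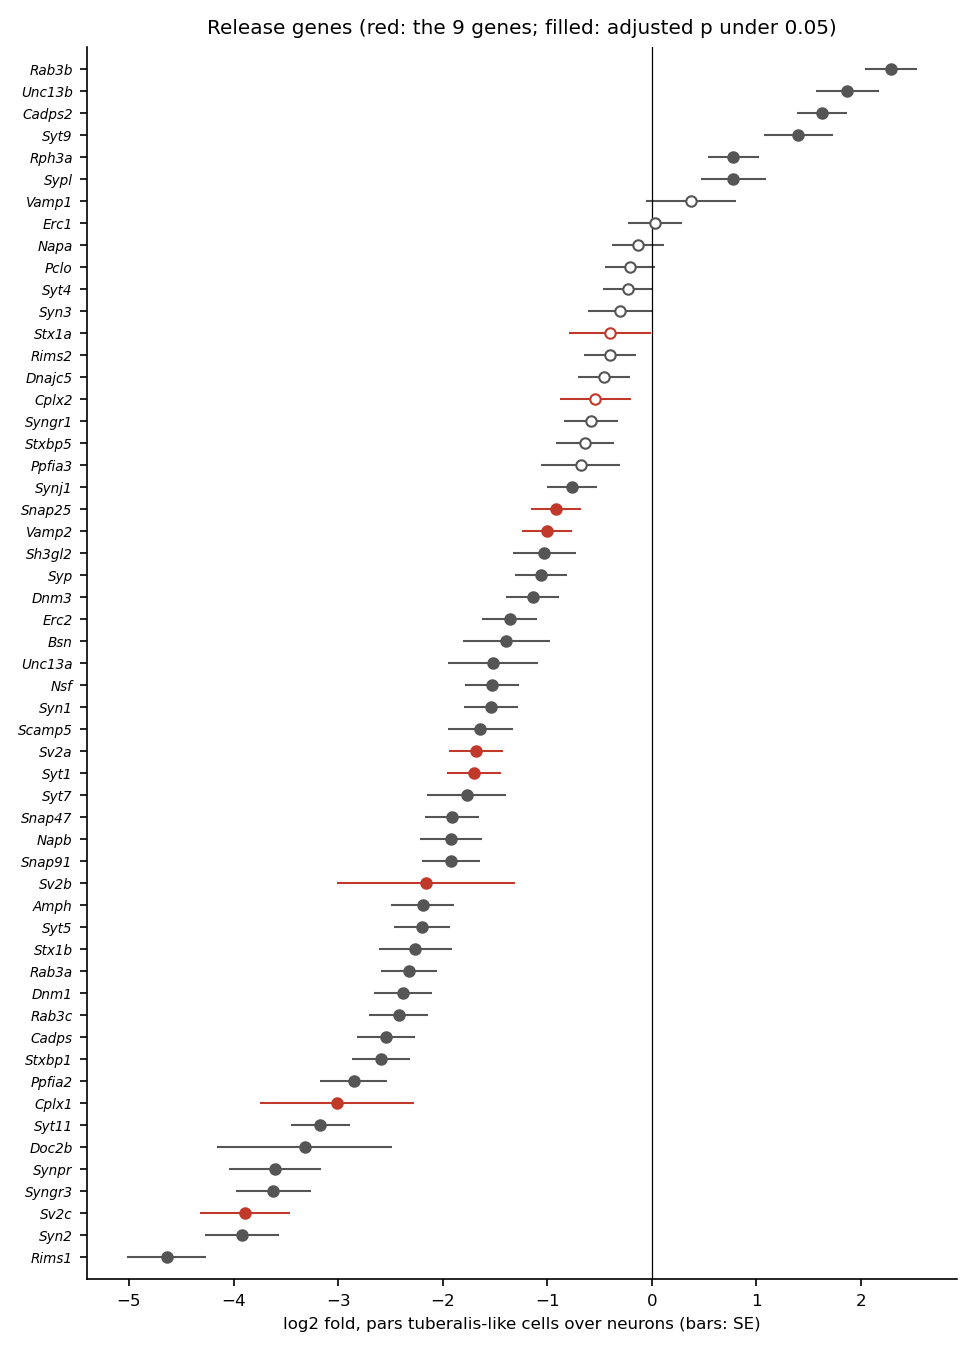
Pars tuberalis-like cells over neurons of the same plates as log2 fold (x axis, bars for the SE) for the 9 genes (red) and the 46 tested list genes (grey), one per row, sorted by fold. Filled points have an adjusted p under 0.05; Rab3b stands highest at 2.29 and Rims1 lowest at -4.64.

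Feeding state could not be tested in pars tuberalis-like cells, since 1 fasted and 1 fed plate held them. Snap25 had 341 CPM (exact Poisson interval 295 to 393) on the fasted plate and 424 CPM (340.5 to 522) on fed plate 1. Sv2a had 205 CPM (169.5 to 246) and 176 CPM (124 to 243), and Syt1 200 CPM (165 to 240.2) and 152 CPM (104 to 215), in the same order. Intervals of all 9 genes overlapped between these plates; they cover counting error only, and on the fasted plate 19 of the 20 cells were Xist-only while on fed plate 1 18 of 21 had Y-linked transcripts and no Xist.

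Outside neurons and the pars tuberalis, oligodendrocyte-like cells had the highest level of Sv2a. They had 496 CPM of Sv2a on the fasted plate (183 UMIs), within the neuronal range of 494 to 758 CPM. On fed plate 2 they had 737 CPM (44 UMIs, counting interval 536 to 990), also within that range. On fed plate 3 they had 365 CPM (15 UMIs, 204.5 to 603), which lay below it. The 27 sums of the other 9 named non-neuronal classes ran from 20.9 to 347.5 CPM with a median of 92.9. Clusters without a name ran from 77.5 to 535 CPM. Unthinned, 49 of 51 oligodendrocyte-like cells held an Sv2a UMI (96.1%, median depth 9016 transcripts), and 147 of 234 tanycyte-like cells did (62.8%, 6964.5 transcripts). Thinned to 1000 transcripts, 35.3% of oligodendrocyte-like cells (22.4 to 49.9) and 15.0% of tanycyte-like cells (10.6 to 20.2) held one, beside 43.8% of AgRP-like neurons. Vamp2 had 214 CPM on the fasted plate and 402 and 317 CPM on fed plates 2 and 3, so that plate 2 held its highest non-neuronal value. After thinning, 19.6% of oligodendrocyte-like cells (9.82 to 33.1) and 24.4% of tanycyte-like cells (19.0 to 30.4) held a Vamp2 UMI. Snap25 was then seen in 3.92% of oligodendrocyte-like cells and in 46.4% of AgRP-like neurons. No test was run on these levels.

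Over the 44 sums of a class on a plate with 5 or more cells, the genes most like the mean of the 9 in log2(CPM + 1) were Zwint (Pearson's r = 0.894), Tmem130 (0.876), Cntnap2 (0.867), Pcp4 (0.865) and Snhg11 (0.859), among 9868 genes averaging 20 CPM or more. The genes most like Sv2c were the GABA-A receptor subunits Gabrq (0.833) and Gabre (0.756), with Zwint, Elavl2 and Atp6v1a at 0.769, 0.748 and 0.740. Those most like Cplx2 were Nagk (0.774), Trappc2l (0.722) and Ppp2r3d (0.716). The sums share plates and depth, so these correlations only describe the sums.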

How the data were processed

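Single sorted cells in 384-well plates were profiled by CEL-seq2, with a UMI of 6 bases per the labels' protocols. Per the submitters' processing notes, the tools were Trim Galore and STAR and the build mm10. Annotation release, UMI counter and the counting of introns: not given in the sources used here. The deposited values are expected counts: UMIs per gene and well that the authors corrected for collisions among 4096 UMIs, with no normalization. They were rounded to whole numbers here. Gene positions come from GENCODE vM21 (GRCm38), in which all 9 genes matched.

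Wells were kept at 1000 or more transcripts of nuclear genes (spike-ins excluded) and under 30% mitochondrial counts. Cells were clustered with scanpy 1.11.5 on 2000 variable genes (30 components, 10 neighbours, Leiden resolution 1.5, 25 clusters), leaving out the 9 genes, the 48 list genes and sex-linked genes. Classes were named by markers, with thresholds set after the clusters were seen. Clusters that stayed without a name enter no range given for non-neuronal classes. No doublet caller was run, since 1 cell was sorted per well. All plates use the same 384 well barcodes. Kept cells held 5092519 transcripts on the fasted plate and 4398233 to 5529965 on the fed plates.

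Sums per class and plate were tested with edgeR 4.0.16 in R 4.3.3 (quasi-likelihood, filterByExpr, TMM, robust, Benjamini-Hochberg over all genes, threshold 0.05). Adjusted p-values are from that test unless another is named. Levels are CPM of plain totals, as TMM factors lay between 0.961 and 1.023; folds are after TMM. Fasting fits have 2 residual degrees of freedom, take the spread from the fed plates and assume that the fasted plate varies alike. The quasi-likelihood fit also draws the spread of each gene toward a trend over all genes. SEs and p-values thus rest partly on other genes, and do not measure a gene's own spread between plates alone. In simulated counts with 200 genes changed 4-fold, the AgRP-like fasting test recovered 99.5% and the comparison with pars tuberalis-like cells 90.5%. The changed genes were drawn from well-counted genes, with the same spread set for all genes. These rates thus do not cover genes with few UMIs, such as Sv2b, or smaller folds. Alternatives were DESeq2 1.42.0, RLE factors, no filter, other resolutions, a higher transcript minimum, thinning, Xist-only cells and leaving out plates.

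The rule for named genes took all 9, up to 10 called list genes per comparison with the largest folds, and the 5 most alike genes, of which some are not reported here. Genes and lists were chosen with earlier results of these data known. Intervals and limits of 3 counts cover counting error only.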

Additional observations from a re-analysis of the deposited data

Results flagged for a closer look

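The fasting difference was unlike between the neuron classes for 2 of the 9 genes and 2 list genes by the test of the difference itself. Sv2b differed by 2.84 on the log2 scale, with 21.0 CPM in fasted AgRP-like neurons and 8.15 CPM in fasted other neurons. Sv2c differed by 1.98, Rab3b by 1.00 and Rph3a by -1.27, all as AgRP-like minus other neurons.

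The 238 wells under 1000 transcripts, which enter no comparison, held 144 UMIs of the 9 genes among 76599 in all, above the limit of 3 counts. Sv2a gave 47 of them, Snap25 30, Vamp2 29 and Syt1 17. No empty-well control was labelled. Groups of 3 fed plates are too small for a check of single outlying plates.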

How the results depend on the processing

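No paired analysis was possible because the fasted plate and the fed plates share no replicate number with at least 2 members; plate was a block wherever classes of the same plates were compared. In AgRP-like neurons, 2 of the 9 genes were called between fasted and fed plates, 1 among Xist-only cells, 1 after thinning to 10000 transcripts (an alternative chosen after seeing the data) and 0 after thinning to 1000 transcripts, where 4 of the 9 could be tested and Sv2c and Cplx2 could not. Without each fed plate in turn the number was 2.0 throughout, and the log2 fold of Sv2c ran from 1.51 to 1.69. In other neurons it was 0 to 1 without each fed plate in turn. For the difference between the classes it was 2, and 1 in DESeq2, where Sv2b had no adjusted p, and 1 among Xist-only cells. It was 3 without the filter on low counts and 3 without any 1 fed plate. For AgRP-like against other neurons it was 2, and 1 in DESeq2, and ran from 1 to 4 without each plate in turn. For pars tuberalis-like cells it was 7, against 6 without the filter and 5 in DESeq2; it could not be fitted without the fasted plate or fed plate 1, and the other fed plates do not enter it. No direction of a called gene was turned. Over all genes, 660 were called in AgRP-like neurons by fasting, 177 by DESeq2, 57 among Xist-only cells, and 6 and 181 after thinning to 1000 and 10000 transcripts. In other neurons 18 were called, 183 without the filter, 271, 104 and 124 without fed plates 1, 2 and 3, and 0 and 4 after the thinnings. For the difference 145 were called, 235 without the filter, 19 by DESeq2, 56 among Xist-only cells, and 311, 374 and 258 without fed plates 1, 2 and 3. For AgRP-like against other neurons 1763 were called, 2220 without the filter, 1197 by DESeq2, 1509, 1216 and 1314 without fed plates 1, 2 and 3, and 1989 without the fasted plate. For pars tuberalis-like cells 4450 were called, and 1905 by DESeq2. The causes were not tested. Glutamatergic-like against GABAergic-like neurons was not run under any setting. Thinning to 1000 transcripts lowered all 27 shares of cells with a UMI. Depth limits Sv2b and Cplx1, with 3 UMIs or fewer in each pars tuberalis-like sum.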
